A study of Mus musculus with 4 samples.

Results

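The 10 genes described here carry or answer signals of the bone morphogenetic proteins (BMPs) and were taken by symbol from the 22026 genes measured. They are the receptor genes Bmpr1a, Bmpr2, Acvrl1 and Eng, the SMAD genes Smad1, Smad5 and Smad6, and the Id genes Id1, Id2 and Id3. RNA came from mouse bone marrow derived macrophages in 4 libraries, 2 from RBP-J KO mice (genotype Rbpj f/f;LysM cre) and 2 from wild-type controls (WT), all on the C57BL/6 strain. Marrow was taken at 8 weeks of age and grown for 3 days with CMG14-12 supernatant, which supplied the equivalent of 20 ng/ml of the macrophage growth factor M-CSF. LysM cre expresses Cre recombinase from the Lyz2 locus, so deletion is restricted to myeloid cells and need not be complete. The labels do not say whether the WT mice carried LysM cre or floxed Rbpj, or whether libraries came from single or pooled mice. The question posed is which transcripts are under the control of RBP-J, the nuclear DNA-binding partner of the Notch receptors.

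BMPs bind paired type I and type II receptor kinases at the cell surface, with endoglin as an accessory receptor. The activated type I receptor phosphorylates SMAD1 and SMAD5, which enter the nucleus with SMAD4. Their best known targets are the Id genes, whose products bind E proteins and keep them off DNA, and Smad6, whose product dampens the pathway in turn. In macrophages and their precursors, Id proteins are known for restraining differentiation programmes, including that of osteoclasts.

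The replicate numbers set the libraries apart, and this bears on every value below. The replicate 1 tables have a row per gene, whereas the replicate 2 tables have a row per transcript, summed here per symbol. Ddx3y, a Y-linked gene, stood at 174 FPKM in RBP-J KO and 193 FPKM in WT replicate 1 and at 0 in both replicate 2 libraries. Xist, the RNA of X inactivation, was at 0 in both replicate 1 libraries, and at 289.9 FPKM in RBP-J KO and 268 FPKM in WT replicate 2. By these genes sex goes with the replicate number, male in replicate 1 and female in replicate 2. The deposited values were taken as FPKM, a level per length of transcript and per size of library, although the tables name no unit, and the read depth behind them is unknown. Rbpj itself was at 51.5 and 77.0 FPKM in RBP-J KO, against 355 and 573 FPKM in WT. The 8 macrophage markers, among them Csf1r, Emr1 and Cd68, summed to 19091 and 12556 FPKM in RBP-J KO and to 16834 and 15405 FPKM in WT. Of the 8, 2 were higher and 3 lower in RBP-J KO inside both pairs, against 25.1% and 34.1% of all genes tested. Cd14, the coreceptor for lipopolysaccharide, was among the lower ones, at 764 and 800 FPKM in RBP-J KO, against 1715 and 1570 FPKM in WT, with a fitted log2 difference of -1.07 (SE 0.18; limma, adjusted p = 0.53). Lyz2, the lysozyme gene whose locus carries the Cre and which has the near copy Lyz1, was at 94.3 and 115 FPKM in RBP-J KO, against 218 and 191.5 FPKM in WT, with a fitted log2 difference of -0.97 (SE 0.20; limma, adjusted p = 0.62). Cd14 and Lyz2 were picked with their values known, and both had RBP-J KO libraries below both WT libraries. Because the replicate numbers stand apart, values are given for replicates 1 and 2 in that order, and differences also inside each number, as pair 1 and pair 2. In bulk RNA, fewer cells of a type and less RNA per cell cannot be told apart.

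Id1, Id3 and Smad6 were higher in RBP-J KO than in WT inside both pairs, while the receptors and the signal-carrying SMADs lay within 1.75-fold across the 4 libraries, with Bmpr1a as the exception. By their FPKM ratios, these 3 genes were 1.54-fold to 10.2-fold higher in RBP-J KO than in WT inside a pair, and 6.16-fold to 60.4-fold higher in replicate 1 than in replicate 2 inside a genotype. None of the 10 genes passed the test: limma with Benjamini-Hochberg adjustment over 11851 genes gave adjusted p = 0.999 for each, and 0 had an unadjusted p under 0.05. Over all genes tested, adjusted calls came to 0% and unadjusted ones to 4.42%, with 2.19% higher and 2.24% lower. This fit has no term for the replicate number, so its SEs hold the gap between the numbers. With the number as a block, 3 of the 10 (Id1, Id3 and Smad6) had an unadjusted p under 0.05 (limma), against 13.1% of all genes. None of the 10 passed the adjusted threshold in that fit (limma, smallest adjusted p = 0.201). All 10 genes passed the filter on low values, a mean of at least 1 FPKM. On the log2(FPKM + 1) scale, 2 of the 10 (Id1 and Id3) were higher by 1.5-fold or more inside both pairs, against 3.86% of all genes tested, and 0 were lower by as much, against 3.63%. By any amount, RBP-J KO was higher inside both pairs for 6 of the 10 and lower for 0, where 25.1% of all genes were higher and 34.1% lower. The median fitted log2 difference of the 10 was 0.26 and that of all genes tested was -0.05. The 10 genes, like the lists used below, were chosen with earlier results of these data known. These counts and medians therefore describe the chosen genes and test nothing.

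**Figure D1:**
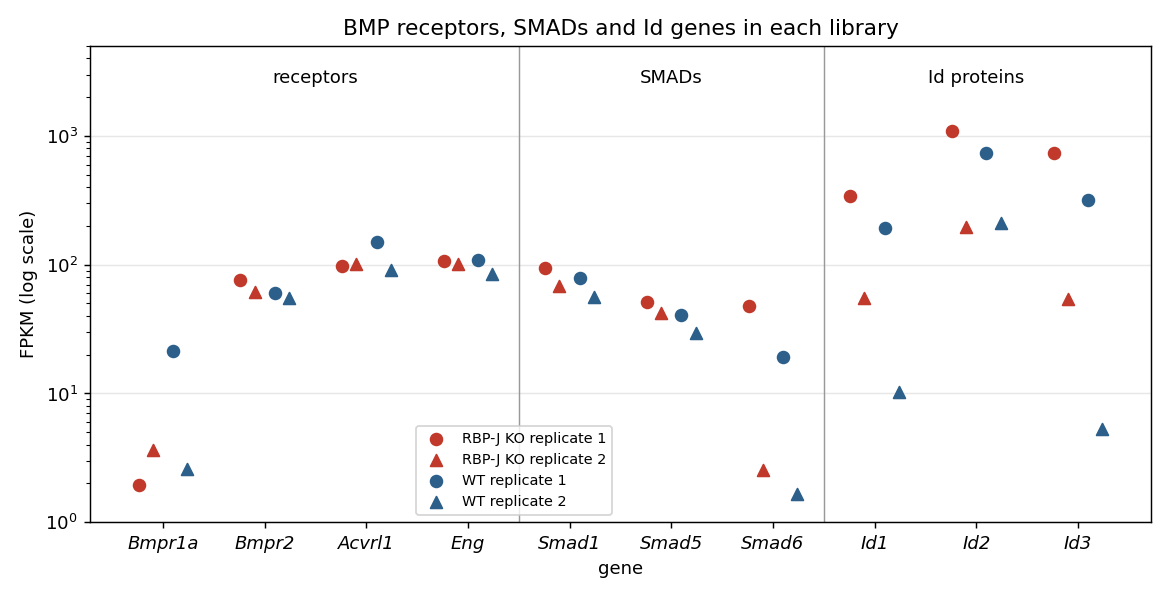
FPKM on a log axis for each of the 10 genes in each library, with RBP-J KO in red left of WT in blue, replicate 1 as circles and replicate 2 as triangles. Id1, Id3 and Smad6 separate by replicate number, and inside each number the RBP-J KO point lies above the WT point, while Bmpr2, Eng, Smad1 and Smad5 each span less than 2-fold.

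Id3, an inhibitor of helix-loop-helix factors, was at 743 and 53.9 FPKM in RBP-J KO, against 319 and 5.28 FPKM in WT. The RBP-J KO library was the higher in each pair, but the groups overlapped, since WT replicate 1 stood above RBP-J KO replicate 2. On the log2(FPKM + 1) scale RBP-J KO minus WT was 1.22 in pair 1 and 3.13 in pair 2. The fitted log2 difference was 2.17 (SE 2.27, n = 2 libraries per group; limma, adjusted p = 0.999). With the replicate number as a block, Id3 kept this difference with an SE of 0.49 (limma, adjusted p = 0.20). Its highest value was 141-fold above its lowest. Of the 11433 genes above 0 in every library and tested, 6 had a range at least as wide, Id3 included, and the median range was 1.52-fold.

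Id1, the member of the family most used as a readout of BMP signalling, was at 342 and 55.6 FPKM in RBP-J KO, against 193 and 10.4 FPKM in WT. The pairs differed by 0.82 and 2.32 on the log2(FPKM + 1) scale, again with a wider gap in pair 2 than in pair 1 and with overlapping groups. This gave a fitted log2 difference of 1.57 (SE 1.62; limma, adjusted p = 0.999). Under the block on the replicate number, Id1 kept this difference with an SE of 0.39 (limma, adjusted p = 0.24). Id3 was more abundant than Id1 in the replicate 1 libraries, with Id3 to Id1 ratios of 2.17 in RBP-J KO and 1.65 in WT. The ratios were 0.97 in RBP-J KO and 0.51 in WT replicate 2. Per length, Id3 therefore had a larger share of the Id1 and Id3 RNA in the RBP-J KO library of each pair.

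Id2, best known for its role in dendritic and innate lymphoid cells, was the most abundant of the 10 genes in every library. It was at 1098 and 195 FPKM in RBP-J KO, against 739.55 and 210.03 FPKM in WT. Its pairs went opposite ways, by 0.57 in pair 1 and -0.10 in pair 2 on the log2(FPKM + 1) scale. Over all libraries the log2 difference was 0.23 (SE 1.04; limma, adjusted p = 0.999). Id2 was 5.62-fold higher in replicate 1 than in replicate 2 in RBP-J KO and 3.52-fold higher in WT, so that it shared the replicate pattern of Id1 and Id3 but not their order of genotypes in pair 2. Id4, the remaining gene of the family, was listed at 0 in all 4 libraries.

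The fitted differences of the Id genes turn with a single library. Without WT replicate 2 they were -0.66 for Id3, -0.48 for Id1 and -0.67 for Id2 on the log2 scale. Without WT replicate 1 they were 5.01 for Id3 and 3.62 for Id1. Leaving out 1 library leaves unequal replicate numbers in the groups, so the gap between the numbers enters these fits. Their change of sign therefore does not measure how the genotypes differ inside a pair. The values inside each pair compare libraries of the same table layout, 1 against 1, and allow no test.

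Promoter windows from 250 bases before to 50 bases after the start site are shown for the members the results turn on, from RefSeq on build GRCm38.p6. The files use mm9, and no position was carried between builds. A window was found for 8 of the 10 genes, not for Id1 and Acvrl1, and Smad5 has 3. Capitals mark any of TGGGAA (the core bound by RBP-J), GGCGCC (a palindrome bound by SMAD1 and SMAD5), CAGAC (a short SMAD element), and the E-boxes CAGCTG and CACGTG, searched on both strands. Positions are counted from 1 at the 5′ end of the window and name the first base of a match as printed. The windows of Id3 and Id2 are given because these related genes differed in pair 2. That of Smad6 is given because its levels ranked the libraries in the same order as those of Id3, and that of Bmpr2 as a member of steady level.
Id3, chr4:136143572-136143871, plus strand: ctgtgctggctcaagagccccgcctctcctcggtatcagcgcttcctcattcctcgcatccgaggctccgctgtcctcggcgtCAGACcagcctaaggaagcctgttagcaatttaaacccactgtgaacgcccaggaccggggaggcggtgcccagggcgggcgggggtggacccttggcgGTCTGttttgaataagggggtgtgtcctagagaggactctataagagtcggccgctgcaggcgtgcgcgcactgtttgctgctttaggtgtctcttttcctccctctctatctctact
Id2, chr12:25096043-25096342, minus strand: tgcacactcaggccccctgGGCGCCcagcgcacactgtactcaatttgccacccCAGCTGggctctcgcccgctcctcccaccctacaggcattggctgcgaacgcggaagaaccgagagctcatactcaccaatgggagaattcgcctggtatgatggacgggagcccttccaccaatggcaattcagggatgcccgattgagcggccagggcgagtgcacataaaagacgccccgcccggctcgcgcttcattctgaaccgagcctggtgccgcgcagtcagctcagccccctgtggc
Smad6, chr9:64022010-64022309, minus strand: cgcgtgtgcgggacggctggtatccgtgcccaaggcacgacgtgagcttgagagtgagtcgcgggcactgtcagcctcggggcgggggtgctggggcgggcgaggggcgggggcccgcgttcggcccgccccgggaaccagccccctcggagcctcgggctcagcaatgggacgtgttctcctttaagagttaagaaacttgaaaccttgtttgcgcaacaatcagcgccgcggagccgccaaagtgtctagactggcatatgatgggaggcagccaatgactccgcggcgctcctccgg
Bmpr2, chr1:59764029-59764328, plus strand: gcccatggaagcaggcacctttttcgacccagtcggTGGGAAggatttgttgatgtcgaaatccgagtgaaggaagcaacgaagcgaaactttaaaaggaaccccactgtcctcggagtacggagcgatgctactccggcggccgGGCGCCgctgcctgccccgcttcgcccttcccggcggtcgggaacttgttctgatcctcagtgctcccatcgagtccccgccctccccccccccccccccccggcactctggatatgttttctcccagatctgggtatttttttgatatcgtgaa
The Id3 window holds CAGAC at position 84 and its complement at position 183. The Id2 window holds GGCGCC at position 20 and CAGCTG at position 55. Bmpr2 holds TGGGAA at position 37 and GGCGCC at position 146. The letters of none of the 5 motifs occur in the Smad6 window. Of all 32851 windows in the table, 25.6% hold TGGGAA, 11.9% GGCGCC, 49.6% CAGAC, 16.3% CAGCTG and 7.15% CACGTG. Among the 8 members with a window, TGGGAA occurs in 3 (Bmpr1a, Bmpr2 and, in 1 of its 3 windows, Smad5), GGCGCC in 4 and CAGAC in 3. A match is a run of letters and not a site shown to be bound.

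Smad6, the inhibitory SMAD that is itself a BMP target, was at 48.2 and 2.56 FPKM in RBP-J KO, against 19.3 and 1.66 FPKM in WT. The RBP-J KO library was the higher in each pair, by 1.28 in pair 1 and 0.42 in pair 2 on the log2(FPKM + 1) scale. In pair 2 both values are low, where this scale understates a ratio. The fitted log2 difference was 0.85 (SE 1.62; limma, adjusted p = 0.999), and it was -0.62 without WT replicate 2 and -1.04 without RBP-J KO replicate 1. Both of the latter fits hold unequal replicate numbers in the groups, so the gap between the numbers enters them. Under the block on the replicate number, Smad6 kept the difference of 0.85 with an SE of 0.31 (limma, adjusted p = 0.37). Smad6 was 18.8-fold higher in replicate 1 than in replicate 2 in RBP-J KO and 11.6-fold higher in WT.

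Smad1 and Smad5, which carry the signal from the receptors to the nucleus, spanned 1.68-fold and 1.75-fold over the 4 libraries, somewhat more than the median of 1.52-fold for all genes above 0 in every library. Smad1 was at 93.8 and 68.7 FPKM in RBP-J KO, against 78.7 and 56.0 FPKM in WT. The pairs differed by 0.25 and 0.29 on the log2(FPKM + 1) scale, with overlapping groups and a fitted log2 difference of 0.27 (SE 0.28; limma, adjusted p = 0.999). Smad5 was at 51.2 and 42.2 FPKM in RBP-J KO, against 40.9 and 29.2 FPKM in WT, and its groups did not overlap. Its pairs differed by 0.32 and 0.51, with a fitted log2 difference of 0.41 (SE 0.27; limma, adjusted p = 0.999). Both RBP-J KO libraries lay above both WT libraries for 2 of the 10 genes, Smad5 and Bmpr2, against 11.7% of all genes tested, and below them for 0, against 18.2%. The replicate 2 tables list 3 transcripts of Smad5, of which the main one held 86.0% of the summed FPKM in RBP-J KO and 92.4% in WT. Its second transcript was at 5.91 FPKM in RBP-J KO and 2.20 FPKM in WT.

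Among the receptors, Bmpr2, the type II receptor, was at 76.4 and 61.6 FPKM in RBP-J KO, against 60.8 and 54.9 FPKM in WT. Its groups did not overlap, but the gap was small, with 0.32 in pair 1 and 0.16 in pair 2 on the log2(FPKM + 1) scale. The fitted log2 difference was 0.24 (SE 0.22; limma, adjusted p = 0.999). Acvrl1, the type I receptor ALK1 best known from endothelium, was at 96.9 and 102 FPKM in RBP-J KO, against 149.5 and 91.8 FPKM in WT. WT replicate 1 was the highest library and the other three were close to each other, so that the pairs went opposite ways, by -0.62 and 0.15. The fitted log2 difference was -0.23 (SE 0.29; limma, adjusted p = 0.999), and without WT replicate 1 it was 0.12. By level, Acvrl1 and Eng held ranks 2 to 5 of the 10 genes in every library.

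Eng, which encodes endoglin, had the narrowest range of the 10 genes over the 4 libraries. It was at 106 and 102 FPKM in RBP-J KO, against 108 and 85.3 FPKM in WT, and its highest library was 1.26-fold above its lowest. Its pairs differed by -0.03 and 0.25 on the log2(FPKM + 1) scale, with a fitted log2 difference of 0.11 (SE 0.21; limma, adjusted p = 0.999). The replicate 2 tables separate 3 transcripts, of which that of isoform 1 held 69.6% of the summed FPKM in RBP-J KO and 75.2% in WT. Isoform 3 held 27.3% in RBP-J KO and 21.5% in WT. These shares rest on 1 library per genotype and have no replicate check.

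Bmpr1a, the type I receptor ALK3, was the least abundant of the 4 receptor genes, at 1.95 and 3.66 FPKM in RBP-J KO, against 21.5 and 2.61 FPKM in WT. WT replicate 1 stood alone, and the other 3 libraries lay between 1.95 and 3.66 FPKM. The pairs went opposite ways, by -2.93 in pair 1 and 0.37 in pair 2 on the log2(FPKM + 1) scale. The fitted log2 difference was -1.28 (SE 0.96; limma, adjusted p = 0.999), and without WT replicate 1 it was 0.04. Without WT replicate 2 it was -2.60, in a fit whose only WT library is WT replicate 1. Counted in pair 1 alone, 3 of the 10 genes were at least 1.5-fold higher (Id1, Id3 and Smad6), against 10.3% of all genes, and 2 at least 1.5-fold lower (Bmpr1a and Acvrl1), against 12.1%. In pair 2 alone the counts were 2 higher, against 6.48%, and 0 lower, against 8.18%.

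**Figure D2:**
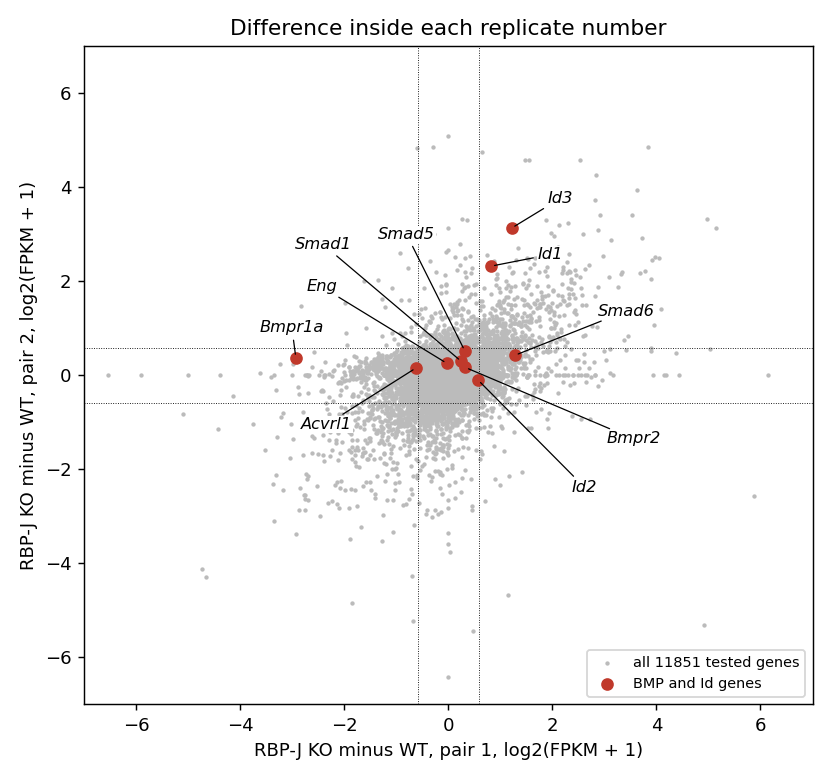
RBP-J KO minus WT in log2(FPKM + 1) for pair 1 (horizontal) and pair 2 (vertical), with all 11851 tested genes in grey, the 10 genes in red and dotted lines at 1.5-fold. Id1 and Id3 lie beyond 1.5-fold upwards in both pairs, Bmpr1a far to the left with a small positive value in pair 2, Smad6 and, downwards and by little, Acvrl1 beyond the line in pair 1 only, and the remaining members near the centre.

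The other genes of the pathway, a list of 58, were next examined by role, and 27 of them passed the filter on low values. Of these 27, 0 passed the adjusted threshold in either direction (limma, Benjamini-Hochberg over all genes), and 2 had an unadjusted p under 0.05, both lower in RBP-J KO, against 2.24% of all genes. These 2, Bambi and Neo1, were also the genes lower by 1.5-fold or more inside both pairs, against 3.63% of all genes tested. Of the 27, 0 were higher by as much, against 3.86%. The median fitted log2 difference of the 27 was -0.04, against -0.05 for all genes tested.

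Ligands and extracellular antagonists were largely undetected. Of 12 ligand genes, 11 were listed at 0 in every library, among them Bmp4, Bmp6 and Bmp7. Bmp2 was the exception, at 0.88 and 2.01 FPKM in RBP-J KO, against 1.40 and 3.86 FPKM in WT. Of 12 antagonist genes, 10 were listed at 0 in every library, including Nog, Chrd and Grem1. Twsg1, a BMP-binding modulator, was at 104 and 96.4 FPKM in RBP-J KO, against 130.3 and 87.6 FPKM in WT. Of 4 other receptor genes Bmpr1b was listed at 0 throughout, and Acvr1, the type I receptor ALK2, was at 73.1 and 39.8 FPKM in RBP-J KO, against 86.3 and 41.6 FPKM in WT. Of 5 other target genes on the list, 4 (Atoh8, Msx1, Msx2 and Hamp) were listed at 0 in every library. The remaining one, Hey1, was at 3.08 and 0 FPKM in RBP-J KO, against 1.54 and 0 FPKM in WT.

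Bambi and Neo1, the 2 list genes beyond 1.5-fold in both pairs, encode membrane proteins, and neither passed the adjusted threshold. Bambi, a pseudoreceptor that lacks a kinase and blocks receptor complexes, was at 6.76 and 5.77 FPKM in RBP-J KO, against 13.6 and 13.4 FPKM in WT. The groups did not overlap, and the replicates of each group were close to each other. RBP-J KO was 1.88-fold lower in pair 1 and 2.13-fold lower in pair 2, with a fitted log2 difference of -1.0 (SE 0.28; limma, adjusted p = 0.88). Neo1, which encodes neogenin, a receptor for the BMP coreceptors of the RGM family, was at 4.37 and 4.71 FPKM in RBP-J KO, against 22.1 and 9.17 FPKM in WT. Its fitted log2 difference was -1.47 (SE 0.48; limma, adjusted p = 0.999). Rgmb, an RGM coreceptor, ranged from 71.5 to 73.0 FPKM in RBP-J KO and from 70.4 to 74.5 FPKM in WT.

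Of the partners of Id proteins, the E protein gene Tcf12 had RBP-J KO libraries below both WT libraries. It was at 121 and 91.7 FPKM in RBP-J KO, against 189.7 and 135 FPKM in WT, with a fitted log2 difference of -0.59 (SE 0.27; limma, adjusted p = 0.999). The E protein genes Tcf3 and Tcf4 had fitted log2 differences of 0.00 and -0.09. Fkbp1a, whose product holds type I receptors inactive, was at 342 and 533 FPKM in RBP-J KO, against 544 and 721 FPKM in WT. In all, 5 of the 27 tested genes had both RBP-J KO libraries below both WT libraries (Neo1, Bambi, Tob1, Fkbp1a and Tcf12) and 1 had them above (Tob2). These shares compare with 18.2% and 11.7% of all genes.

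**Figure D3:**
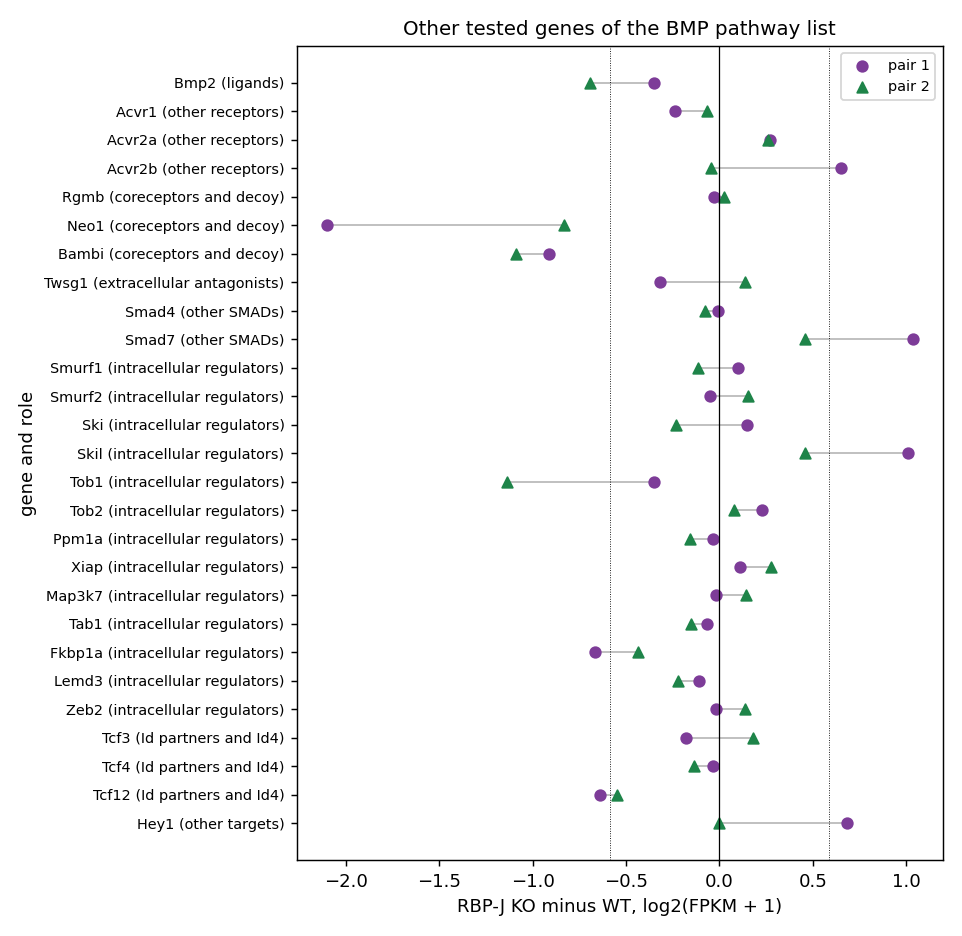
RBP-J KO minus WT in log2(FPKM + 1) for the 27 tested genes of the pathway list, with pair 1 as circles, pair 2 as triangles and dotted lines at 1.5-fold. Bambi and Neo1 lie beyond the left line in both pairs, and Smad7 and Skil lie to the right in both pairs but beyond the line in pair 1 only.

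The list has 13 intracellular regulators, which include Skil but not the SMADs. Of these, 3 were higher and 5 lower in RBP-J KO inside both pairs, by any amount, and 5 went opposite ways. Over all genes tested, 25.1% were higher and 34.1% lower inside both pairs. Smad7, the other inhibitory SMAD, was at 35.1 and 5.19 FPKM in RBP-J KO, against 16.6 and 3.5 FPKM in WT. Skil, whose product SnoN represses SMAD targets, was at 394 and 45.9 FPKM in RBP-J KO, against 195 and 33.1 FPKM in WT. Smad7 and Skil were picked with their values known. Smad7 was higher in RBP-J KO by 1.04 and 0.46 in the pairs, and Skil by 1.01 and 0.46, on the log2(FPKM + 1) scale. Smad4, the partner of all signal-carrying SMADs, was at 135 and 117 FPKM in RBP-J KO, against 136 and 123 FPKM in WT.

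The 10 genes differed in how far apart the replicate numbers lay. Id1, Id3 and Smad6 were at least 4-fold higher in replicate 1 than in replicate 2 in both genotypes, 3 of 10, against 1.41% of all genes tested (a threshold chosen after the values were seen). The ratios were 6.16 in RBP-J KO and 18.7 in WT for Id1, and 13.8 in RBP-J KO and 60.4 in WT for Id3. Smad1, Smad5, Bmpr2, Acvrl1 and Eng stayed within 2-fold in both genotypes, 5 of 10, against 82.9% of all genes. Id2, at 5.62 in RBP-J KO and 3.52 in WT, and Bmpr1a, at 0.53 in RBP-J KO and 8.24 in WT, fell in neither group. By level, Id3 held rank 2 of the 10 genes in both replicate 1 libraries, and rank 7 in RBP-J KO and 8 in WT replicate 2. Table layout, and sex as read from Ddx3y and Xist, cannot be told apart from the replicate number. Id1, Id3 and Smad6 each have 1 transcript in the replicate 2 tables.

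**Figure D4:**
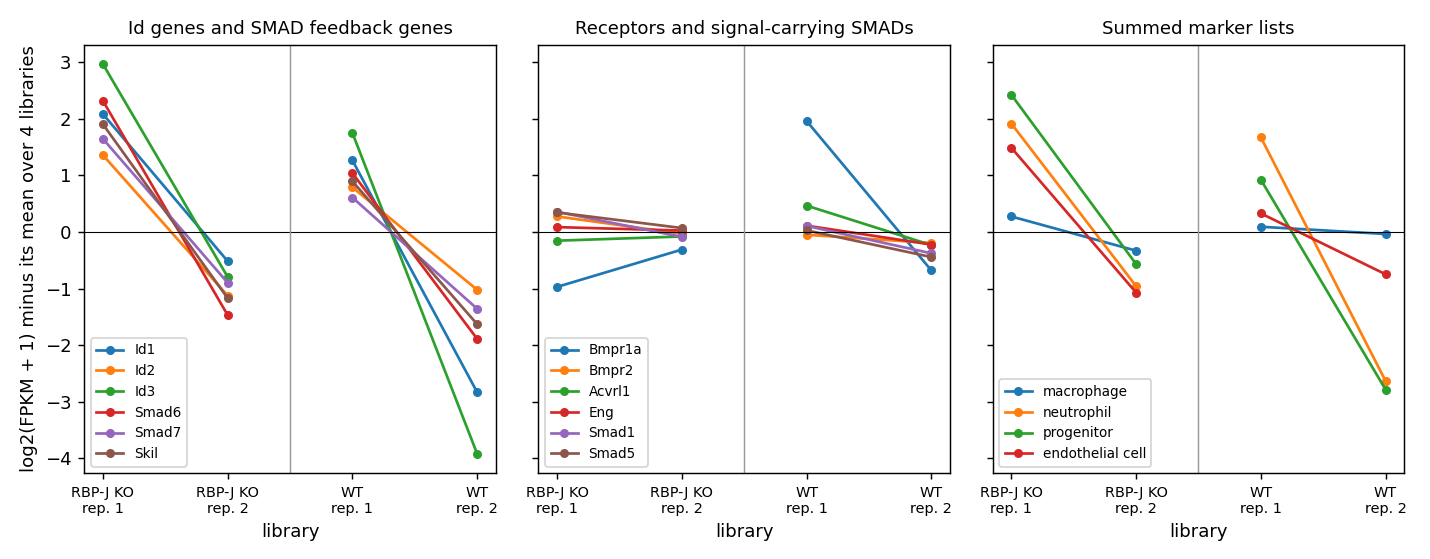
log2(FPKM + 1) minus its mean over the 4 libraries for the Id genes and feedback SMAD genes (left), the receptors and signal-carrying SMADs (middle) and summed marker lists (right), with RBP-J KO left of WT and lines joining the replicates of a genotype. Genes on the left and the neutrophil and progenitor sums are high in both replicate 1 libraries and, except for Id2, lowest in WT replicate 2, while each gene of the middle panel except Bmpr1a spans less than 2-fold.

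Summed markers of neutrophils and progenitors moved with the same libraries. The neutrophil list had 8 of 9 markers listed and none at 0 throughout. It summed to 8298 and 1132 FPKM in RBP-J KO, against 7014 and 353 FPKM in WT. In both pairs, 5 of the 8 were higher in RBP-J KO and 0 lower, against 25.1% and 34.1% of all genes tested. Mmp8 of this list was at 84.8 and 189 FPKM in RBP-J KO, against 108 and 85.2 FPKM in WT. The 4 progenitor markers summed to 102 and 11.9 FPKM in RBP-J KO, against 35.4 and 1.78 FPKM in WT, with 3 higher in both pairs. Their part in the values of Id1, Id3 and Smad6 was not tested. Because Acvrl1 and Eng are abundant in endothelium, endothelial markers were also read. They summed to 135 and 22.1 FPKM in RBP-J KO, against 59.8 and 27.8 FPKM in WT, with Tek and Robo4 at 0 in every library, and 2 of the 8 were higher and 1 lower in RBP-J KO inside both pairs. The lower one, Vwf, was at 8.35 and 2.03 FPKM in RBP-J KO, against 10.1 and 21.0 FPKM in WT, and made up most of the sum in WT replicate 2. Kdr, chosen after its values were seen, made up most of the RBP-J KO sums, at 114 and 17.2 FPKM, against 36.2 and 6.20 FPKM in WT. Cdh5, another marker of the list, was at 8.29 and 1.34 FPKM in RBP-J KO, against 7.09 and 0.64 FPKM in WT. Eng was at 85.3 FPKM or more in each library. The part of endothelial cells in the values of the 2 receptor genes Acvrl1 and Eng was not tested.

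The sums of the other lists varied in which libraries were high. Stromal and osteoblast markers summed to 3.93 and 0 FPKM in RBP-J KO, against 6.32 and 0.81 FPKM in WT, with 4 of 9 at 0 throughout. Erythroid markers summed to 13.8 and 23.5 FPKM in RBP-J KO, against 9.49 and 11.6 FPKM in WT. B cell markers reached 37.2 and 25.95 FPKM in RBP-J KO, against 18.5 and 6.93 FPKM in WT, so that they were higher in RBP-J KO inside both pairs and lowest in WT replicate 2. All B cell marker signal in replicate 2 was Cd79b. T and NK cell markers summed to 12.1 and 0 FPKM in RBP-J KO, against 7.71 and 0 FPKM in WT, and those of mast cells and basophils to 16.5 and 0 FPKM in RBP-J KO, against 1.96 and 0 FPKM in WT. The megakaryocyte list summed to 2807 and 4324 FPKM in RBP-J KO, against 3497 and 3030.5 FPKM in WT, of which most was Pf4. Apart from Pf4, Itga2b was at 36.1 and 3.69 FPKM in RBP-J KO, against 32.2 and 0 FPKM in WT, and Ppbp at 271 and 21.2 FPKM in RBP-J KO, against 404 and 8.0 FPKM in WT, so both were high in replicate 1 and lowest in WT replicate 2.

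The genes whose profile was most like those of Id1 and Id3 were sought among 9316 genes averaging 10 FPKM or more. The members and genes with Gm or Rik symbols were left out of this pool. Likeness was the Euclidean distance of log2(FPKM + 1) centred over the 4 libraries. For Id1 the nearest 5 were Chi3l3, Chi3l4, Cd34, Pmepa1 and Elane, at distances of 0.33 to 0.56. For Id3 they were Chi3l1, Retnlg, Pmepa1, S100a8 and Itga2b, at 0.83 to 1.21. Pmepa1 appeared in both lists, at 99.1 and 9.03 FPKM in RBP-J KO, against 41.3 and 1.21 FPKM in WT. The distance between Id1 and Id3 themselves was 1.51. With 4 libraries, such a profile rests mostly on the gap between the replicate numbers.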

How the data were processed

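RNA of 4 libraries was compared, grouped by sample title. The authors used TopHat, Cufflinks and build mm9, per the submitters' processing notes. Versions, annotation and scaling were not given in the sources used here. As the file headers name no unit, the deposited values were taken as FPKM, which Cufflinks writes. Depth is unknown, so no counting interval is given and precision is limited by 2 libraries per group. No label says that replicates came from separate cultures, although Ddx3y and Xist place replicates 1 and 2 in mice of different sex. The p-values reflect the spread between libraries alone, part of which may be technical or go with sex.

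Transcript values were summed per symbol, after 25 symbols turned into dates were restored. Values were tested as log2(FPKM + 1), which understates changes of low genes, for the 11851 genes averaging 1 FPKM or more, with limma 3.58.1 in R 4.3.3 (group as the only term, variance trend, Benjamini-Hochberg over all genes, two-sided, threshold 0.05). The fit was tested on simulated data. Differences inside each replicate number were also taken. Figures used Python 3.11.15 and matplotlib 3.10.9. The members and lists were chosen with earlier results of these data known. All 10 members were named, with list genes at least 1.5-fold different in both pairs and the 4 with the smallest p. A total of 14 alternatives was run, and 2 more, each pair alone, were added after the data were seen.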

Additional observations from a re-analysis of the deposited data

How the results depend on the processing

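No adjusted call was made for any of the 10 genes in any of the 14 alternatives, so none was lost. The count of genes at an unadjusted p under 0.05 was 3 with the replicate number as a block (limma; Id1, Id3 and Smad6). The smallest adjusted p of the 10 in that fit was 0.201 (limma). Of all genes, 13.1% had an unadjusted p under 0.05 with the block, against 4.42% without it. Equal numbers are not stated to mark a shared mouse or day; deviations of same-numbered libraries correlated across genes at r = 0.64. The block changed no other call. The median log2 difference of the 10 genes, 0.26, was 0.24 with a pseudocount of 5, 0.30 under quantile normalization, 0.31 under upper-quartile scaling and 0.30 under median-ratio scaling. Leaving out each library in turn it ranged from -0.53 (without WT replicate 2) to 0.58 (without WT replicate 1). The count of genes at least 1.5-fold higher inside both pairs, 2, was 3 at a pseudocount of 0.1 and 2 under the other settings that give it. Each pair alone gave 3 higher and 2 lower genes in pair 1, and 2 higher and 0 lower in pair 2. Single genes changed sign in 9 cases, each with 1 library left out. The ranges were -2.60 to 0.039 for Bmpr1a, -0.58 to 0.12 for Acvrl1, -0.057 to 0.28 for Eng, -1.04 to 2.74 for Smad6, -0.48 to 3.62 for Id1, -1.01 to 1.48 for Id2 and -0.66 to 5.01 for Id3. By construction, these fits hold unequal replicate numbers per group, and the lone library is assumed to vary like the others. Bmpr2, Smad1 and Smad5 kept a positive sign throughout. Unknown read depth leaves the precision of values below a few FPKM, such as those of Smad6 in replicate 2, unstated.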
